A study of Arabidopsis thaliana with 28 samples.

Results

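Closed flower buds of 3 Arabidopsis thaliana mutants, ibm1, ibm1 jmj27 and pds5, were set together against buds of Col, the Columbia control accession. Each genotype was represented by 2 RNA libraries, so 6 mutant libraries faced 2 Col libraries. A gene was described as shared by the mutants when all 6 mutant libraries lay above both Col libraries, or all 6 below, in TMM-scaled CPM, the count of a gene relative to all counts of its library. Of 21548 genes tested, 7015 met this rule (32.6%), 3728 of them higher in the mutants (17.3%) and 3287 lower (15.3%). The series holds 28 samples in all, and its chromatin samples were not analysed here.

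IBM1 and JMJ27 encode JmjC-domain proteins that remove methyl groups from lysine 9 of histone H3 (H3K9), a mark of silent chromatin. PDS5 proteins are partners of cohesin, the complex that keeps sister chromatids joined. Closed buds contain anthers in which meiocytes divide and the tapetum, the layer that feeds them, builds the pollen wall, together with green sepals, petals and carpels. By its title the study is about H3K9 demethylation in male meiosis. The labels give the genotypes ibm1, ibm1 jmj27 and pds5 without allele names, do not state which PDS5 genes are mutated in pds5, and name long-day and short-day chambers at 22 °C without tying either to a library. They give no harvest time, and do not say that libraries came from separate plants, so the p-values measure the spread between these libraries, which may be technical.

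Total counts ran from 20290376 to 26038662 in the mutant libraries and were 19490663 and 23532908 in Col. Chi-square per degree of freedom between replicates was 2.30 in ibm1, 14.4 in ibm1 jmj27, 5.60 in pds5 and 2.89 in Col, so the ibm1 jmj27 replicates differed the most. PI, a floral homeotic gene of petals and stamens, was present in every library, at 180 and 172 CPM in ibm1, 241 and 266 in ibm1 jmj27, 303 and 294 in pds5 and 165 and 162 in Col. In whole buds, fewer cells of a type and less RNA per cell cannot be told apart.

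The genes whose transcripts the genotype names point to did not, with 1 exception, belong to the shared set. IBM1 (AT3G07610) stood at 21.2 and 19.95 CPM in ibm1, 18.8 and 21.4 in ibm1 jmj27, 55.7 and 53.8 in pds5 and 52.5 and 55.5 in Col. JMJ27 (AT4G00990) stood at 69.1 and 77.7 CPM in ibm1, 8.35 and 8.40 in ibm1 jmj27, 60.3 and 61.3 in pds5 and 64.0 and 64.7 in Col. The lines named for these genes were therefore the low ones, and the others were near or above Col. PDS5A (AT5G47690) was at 107 and 111 CPM in ibm1, 215 and 249 in ibm1 jmj27, 3.30 and 3.51 in pds5 and 236 and 249 in Col. The exception was PDS5E (AT1G15940), which was at 108 and 104 CPM in ibm1, 104 and 104 in ibm1 jmj27, 81.8 and 76.7 in pds5 and 145 and 147 in Col. All 6 mutant values of PDS5E lay below both Col values, with log2 fold changes of -0.46, -0.49 and -0.88. PDS5B, PDS5C and PDS5D had mutant libraries on both sides of Col. Yet PDS5B was far lower in pds5, at 4.96 and 4.09 CPM against 69.8 and 66.8 in Col. It was also lower in ibm1 jmj27, at 39.8 and 48.2 CPM. PDS5C was at 42.9 and 37.5 CPM in pds5 against 144 and 144 in Col. For PDS5D the pds5 values were 39.6 and 39.8 CPM against 37.1 and 36.7 in Col.

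The mean of the 3 mutants was then tested against Col with the edgeR quasi-likelihood test, with the spread taken within genotypes. Genes were called at a p under 0.05 after Benjamini-Hochberg adjustment across the whole table. By that test 4970 genes were higher in the mutants (23.1%) and 4929 were lower (22.9%), which is 45.9% of all genes tested. This share is the background for the counts of every gene list below in the fit by genotype. Of the 3728 shared higher genes 3398 passed in their direction, and of the 3287 shared lower genes 2987 did, a count that the rule itself favours and that carries no test. In contrast, 1572 genes passed as higher and 1942 as lower although at least 1 mutant library fell inside or beyond the range of Col. The counts rested on the Col libraries: without Col replicate 2, 3093 genes were higher and 3082 lower. They rested more on how differences between the mutants were treated. In the pooled fit the 6 mutant libraries were fitted as 1 group, so that differences between mutants count as spread. That fit also takes 1 mean over all 6 libraries, so its fold changes differ as well as its spread. It called 857 genes higher (65.5% of the calls, against 50.2% in the fit by genotype) and 452 lower, all in the shared set. Out of 21548 genes tested, these 857 and 452 are the background for the pooled counts of the lists below, so few or 0 calls in a short list are usual. List counts at an unadjusted p have no such background here.

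For most shared genes the nearest libraries of mutants and Col lay close, a gap that understates the change between their means. The median ratio of the nearest mutant library to the nearest Col library was 1.15 among higher genes and 0.900 among lower genes. A log2 fold change of at least 1 in every mutant was found for 532 higher and 187 lower genes, of at least 2 for 150 and 14, and of at least 3 for 49 and 6. At each of these minimums the higher genes outnumbered the lower ones. A margin of 1.5 times between the nearest libraries left 707 higher and 360 lower genes. The 3 comparisons share the Col libraries, so a Col value that is off in both libraries puts a gene on the same side in all 3.

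**Figure D1:**
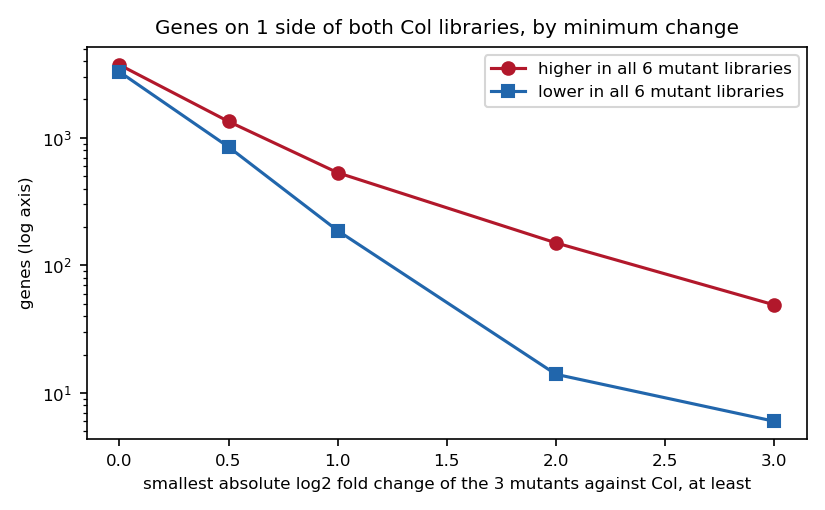
Number of genes (log axis) whose 6 mutant libraries all lay above (circles) or all below (squares) both Col libraries, against the smallest absolute log2 fold change of the 3 mutants. The higher set holds 3728 genes with no minimum and 49 at a minimum of 3, and the lower set 3287 and 6.

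Near the edge of the rule the differences were slight. AT1G43890, just inside the higher set, stood at 46.9 and 51.6 CPM in ibm1, 54.1 and 51.0 in ibm1 jmj27, 52.4 and 52.1 in pds5 and 41.7 and 46.9 in Col. AT1G03280, just outside it, had an ibm1 library and a Col library both at 49.6 CPM. AT4G11790, just inside the lower set, had its highest mutant value at 83.4 CPM in ibm1 and its lowest Col value also at 83.4. For dNK (AT1G72040), a deoxynucleoside kinase gene just outside it, a pds5 library and a Col library both stood at 109 CPM.

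Abundant genes were more often shared than scarce ones. Among genes with a mean log2 CPM under 0, 11% were shared higher and 8.74% shared lower, and among those of at least 8 the shares were 22.7% and 21.4%. The 5 nuclear chromosomes were alike, with 16.6% to 19.2% of their tested genes shared higher and 13.8% to 16.5% shared lower. Chromosome 4 held both the highest share of higher genes and the lowest share of lower genes. Of 73 plastid-encoded genes tested 2 were shared higher and 0 lower, and of 46 mitochondrial genes 1 was shared higher and 4 lower. Neighbouring tested genes on the same side formed runs of at most 6 genes, of which there were 5. One of them ran from AT5G07510 to AT5G07560 on chromosome 5, all lower, and held GRP19, an oleosin-like glycine-rich protein of the pollen coat. A run of 5 higher genes on chromosome 2 began at PRR9 (AT2G46790) and ended at CCA1 (AT2G46830), both clock genes.

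Among genes with a symbol or on a gene list, the 12 whose smallest rise over the 3 mutants was largest are described first. FSD1, an iron-containing superoxide dismutase of the chloroplast, stood at 50.8 and 42.4 CPM in ibm1, 173 and 215 in ibm1 jmj27, 192 and 260 in pds5 and 3.73 and 2.52 in Col. PRR9, a pseudo-response regulator that represses the morning clock genes, stood at 37.0 and 38.6 CPM in ibm1, 52.3 and 46.4 in ibm1 jmj27, 111 and 100 in pds5 and 3.42 and 2.60 in Col. CCA1, a morning Myb repressor, stood at 50.4 and 48.4 CPM in ibm1, 185 and 202 in ibm1 jmj27, 381 and 380 in pds5 and 5.51 and 4.77 in Col. For none of the 3 did any mutant library come near Col, and ibm1 was the lowest mutant for each. The log2 fold changes of their means against Col were 5.36 ± 0.25 for FSD1, 4.29 ± 0.11 for PRR9 and 4.91 ± 0.10 for CCA1 (SE). These genes were named for the size of their change, so their folds are descriptions.

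Of the 12 largest rises, 4 were B-box zinc finger genes, a family of light-signalling regulators. BBX31 stood at 2.25 and 2.65 CPM in ibm1, 9.63 and 8.31 in ibm1 jmj27, 35.4 and 34.0 in pds5 and 0.255 and 0.128 in Col. BBX32, which binds other light regulators, stood at 2.78 and 3.98 CPM in ibm1, 14.2 and 14.0 in ibm1 jmj27, 39.8 and 37.3 in pds5 and 0.358 and 0.426 in Col. Both genes had the same order, pds5 highest and ibm1 lowest among the mutants. BBX30 was barely counted in Col, with 3 counts over both libraries, against 27 for ibm1, 233 for ibm1 jmj27 and 804 for pds5. The ratios to Col were 8.998 (95% interval 2.77 to 46.3), 70.8 (95% interval 23.9 to 346) and 227 (95% interval 77.3 to 1102), which cover counting error only. BBX16 was highest in ibm1 jmj27, at 9.47 and 12.5 CPM, against 1.32 and 1.77 in ibm1, 3.11 and 2.08 in pds5 and 0.0511 and 0.213 in Col.

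The other large rises were those of ASG4, a Myb-like gene of the family that holds CCA1, LSU1, a gene induced by low sulfur, cPT4, a cis-prenyltransferase, MRD1 and DOT1. ASG4 stood at 6.08 and 5.80 CPM in ibm1, 9.59 and 8.87 in ibm1 jmj27, 39.4 and 34.6 in pds5 and 0.460 and 0.767 in Col. LSU1 stood at 3.08 and 2.21 CPM in ibm1, 7.22 and 4.81 in ibm1 jmj27, 6.25 and 8.01 in pds5 and 0.204 and 0.256 in Col. For MRD1, unlike these, pds5 was the lowest mutant, at 13.6 and 14.5 CPM, against 16.3 and 17.0 in ibm1, 46.8 and 43.3 in ibm1 jmj27 and 1.58 and 1.02 in Col. Under the pooled fit the mean of BBX30, BBX31, BBX32, BBX16 and DOT1 no longer passed, and that of the other 7 did.

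The 12 lower genes were chosen in the same way, by their smallest fall among genes with a symbol or on a gene list. COR27, a cold-regulated gene with an evening rhythm, stood at 5.33 and 6.49 CPM in ibm1, 1.59 and 0.747 in ibm1 jmj27, 1.14 and 1.31 in pds5 and 82.1 and 88.9 in Col. JMJ30, an evening-expressed JmjC-domain histone demethylase gene, stood at 12.6 and 10.1 CPM in ibm1, 4.54 and 2.71 in ibm1 jmj27, 8.64 and 6.86 in pds5 and 91.6 and 93.1 in Col. ELF4, a subunit of the evening complex, stood at 8.19 and 10.4 CPM in ibm1, 0.544 and 0.653 in ibm1 jmj27, 1.86 and 0.858 in pds5 and 64.3 and 62.6 in Col. Every mutant library lay far below Col for all 3 genes, and their mean log2 fold changes were -5.38 ± 0.11, -3.74 ± 0.11 and -5.01 ± 0.13 (SE). GRP7, a clock-controlled RNA-binding protein gene, was the most abundant of the 12, at 1288 and 1196 CPM in ibm1, 193 and 175 in ibm1 jmj27, 300 and 306 in pds5 and 4727 and 4336 in Col.

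Others of these 12 genes encode enzymes or a kinase. DIN10, a dark-induced gene of the raffinose synthase family, stood at 18.8 and 17.9 CPM in ibm1, 2.83 and 4.90 in ibm1 jmj27, 6.67 and 6.29 in pds5 and 88.8 and 85.8 in Col. SIP2, a raffinose-cleaving galactosidase gene, stood at 112 and 113 CPM in ibm1, 52.9 and 73.0 in ibm1 jmj27, 56.7 and 52.5 in pds5 and 361 and 364 in Col. MIOX4, a myo-inositol oxygenase gene, was at 3.13 and 3.49 CPM in ibm1, 1.48 and 4.15 in ibm1 jmj27, 2.08 and 1.88 in pds5 and 18.5 and 20.1 in Col. For MIOX4 the ibm1 and pds5 values did not overlap, and the uneven ibm1 jmj27 pair spanned both. The mutant levels of MIOX4 did not pass as different in the edgeR quasi-likelihood F test among the mutants (adjusted p = 0.25). Those of DIN10 and SIP2 did (adjusted p = 1.85e-07 and 1.95e-05). The kinase gene CIPK21 and AT4G33980 were also among the 12. IGMT5, an indole glucosinolate methyltransferase gene, had an uneven pds5 pair of 2.69 and 18.02 CPM, against 11.8 and 12.5 in ibm1, 4.89 and 4.90 in ibm1 jmj27 and 51.2 and 50.3 in Col. Its call ended without ibm1 replicate 1, ibm1 jmj27 replicate 1, Col replicate 1 or Col replicate 2 and without both ibm1 jmj27 libraries. With the mutants pooled, GRP7 and FKF1 no longer passed and the other 10 did.

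**Figure D2:**
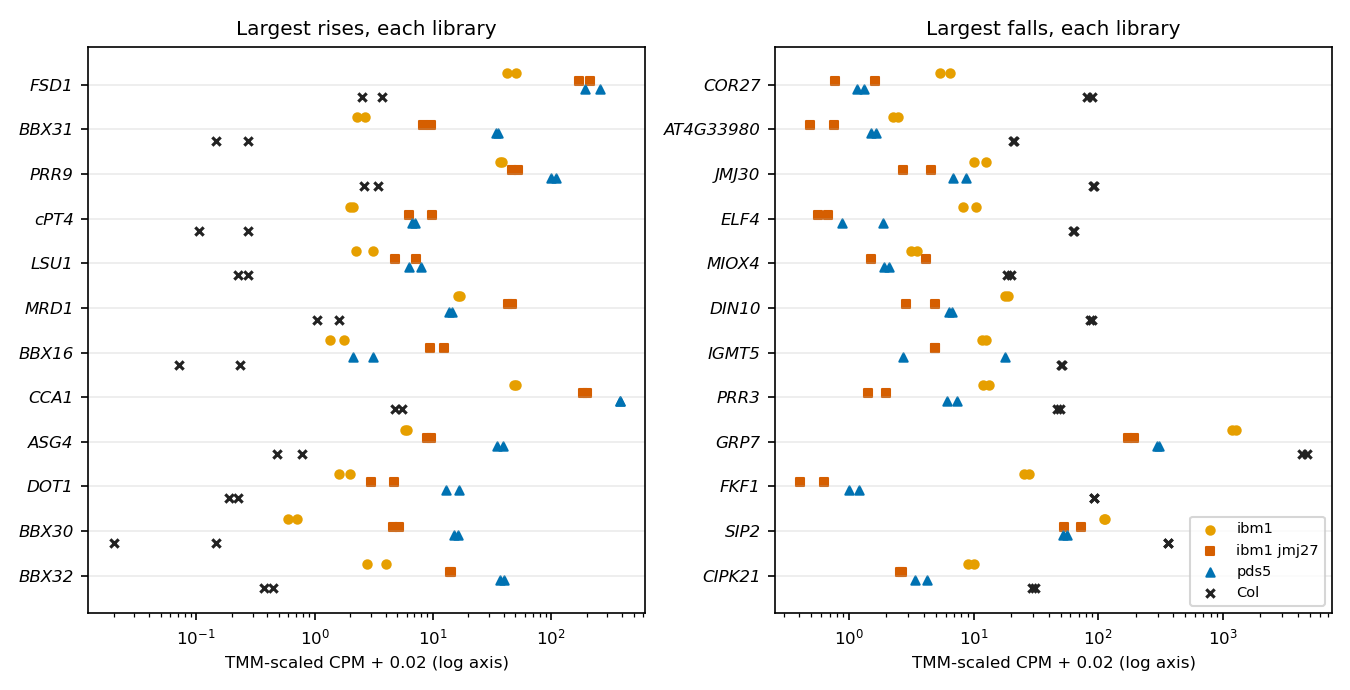
TMM-scaled CPM plus 0.02 (log axis) of the 12 higher (left) and 12 lower (right) genes with the largest smallest change, 1 point per library. Col (crosses) stands apart from all 6 mutant libraries in every row, and ibm1 (circles) is usually the mutant nearest to it.

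Loci with no symbol in the reference and on no gene list were not part of the naming rule. Of these, 4 were picked after their values were seen. AT2G25625 stood at 8.85 and 10.3 CPM in ibm1, 16.1 and 11.9 in ibm1 jmj27, 22.3 and 24.5 in pds5 and 0.204 and 0.0426 in Col. AT1G47400 had 382 counts in ibm1, 55 in ibm1 jmj27, 1669 in pds5 and 1 in Col, ratios of 382 (95% interval 68.1 to 15123), 50.2 (95% interval 8.64 to 2017) and 1412 (95% interval 253 to 55815). AT1G36240 showed the reverse, with 0 counts for ibm1, 3 for ibm1 jmj27 and 2 for pds5, against 74.6 and 72.3 CPM, or 3155 counts, in Col. Against a floor of 3 counts over the group, AT1G36240 was at least 1052-fold lower in ibm1. The ratios of Col to ibm1 jmj27 and of Col to pds5 were 1153 (95% interval 394 to 5595) and 1864 (95% interval 516 to 15401). AT1G07050 stood at 3.74 and 3.98 CPM in ibm1, 0.621 and 0.373 in ibm1 jmj27, 0.682 and 0.572 in pds5 and 37.1 and 41.3 in Col.

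Although shared in direction, the mutants often differed from one another. An F test that uses no Col library found 13646 genes whose level differed among ibm1, ibm1 jmj27 and pds5 (63.3% of all genes tested). Among the shared genes it found 4157 (59.3%), a share near that background. The mutant nearest to Col was ibm1 for 57.1% of the shared higher and 55.2% of the shared lower genes, against 46.6% of all genes tested. The furthest mutant was most often pds5 among higher genes (45.5%, against 39.6% of all genes tested) and ibm1 jmj27 among lower genes (47.7%, against 39.2%). Median log2 fold changes of the higher set were 0.45 for ibm1, 0.62 for ibm1 jmj27 and 0.66 for pds5, and those of the lower set were -0.36, -0.55 and -0.53. Fewer libraries make the rule easier to meet, so leaving out any mutant favours larger shared sets by construction. With both ibm1 libraries left out, an alternative added after seeing the data, the shared sets held 5521 higher and 5421 lower genes. With both ibm1 jmj27 libraries left out, whose replicates differed the most, they held 4822 and 4496, and the mean of ibm1 and pds5 was higher than Col for 5466 genes and lower for 5372. With both pds5 libraries left out they held 4421 higher and 4511 lower genes, and the mean of ibm1 and ibm1 jmj27 was higher than Col for 4013 genes and lower for 4392. In both counts the lower genes then outnumbered the higher ones.

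Some genes changed by similar amounts in all 3 mutants. PIF5, a basic helix-loop-helix factor of light and clock signalling, stood at 37.9 and 42.5 CPM in ibm1, 39.6 and 43.4 in ibm1 jmj27, 41.4 and 43.6 in pds5 and 9.96 and 10.4 in Col. ABA1, the zeaxanthin epoxidase of abscisic acid synthesis, stood at 234 and 242 CPM in ibm1, 195 and 290 in ibm1 jmj27, 253 and 265 in pds5 and 73.1 and 77.6 in Col. CYP89A2, a cytochrome P450 gene, stood at 44.0 and 40.5 CPM in ibm1, 42.4 and 42.1 in ibm1 jmj27, 42.8 and 42.8 in pds5 and 17.57 and 18.4 in Col. The mutant means of these genes lay close together, at 1.24 ± 0.07 to 2.02 ± 0.08 log2 units above Col on average (SE). ASY1, the meiotic chromosome axis protein, stood at 1.76 and 2.56 CPM in ibm1, 1.36 and 2.29 in ibm1 jmj27, 2.16 and 2.37 in pds5 and 4.65 and 4.99 in Col. TPPB, a trehalose phosphate phosphatase gene, stood at 2.69 and 4.47 CPM in ibm1, 1.94 and 3.50 in ibm1 jmj27, 2.84 and 2.66 in pds5 and 8.43 and 10.2 in Col. WAKL7 among higher genes and UGT85A2 and RL3 among lower genes were the others whose mutant means lay closest. These genes were chosen for their likeness, so the closeness itself is a description.

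The genes that differed most among the mutants while sharing a direction were chosen for that spread. LHY, the partner of CCA1, stood at 18.6 and 20.5 CPM in ibm1, 484 and 502 in ibm1 jmj27, 607 and 597 in pds5 and 3.01 and 2.86 in Col. FKF1, a blue-light receptor of photoperiodic flowering, stood at 27.9 and 25.5 CPM in ibm1, 0.388 and 0.607 in ibm1 jmj27, 1.18 and 0.981 in pds5 and 93.4 and 92.4 in Col. For both, ibm1 sat between Col and the other mutants. XTH3, a cell wall xyloglucan enzyme gene, stood at 286 and 293 CPM in ibm1, 0.738 and 5.65 in ibm1 jmj27, 303 and 262 in pds5 and 563 and 667 in Col. PAP25, a purple acid phosphatase gene, stood at 29.8 and 28.7 CPM in ibm1, 0.233 and 1.77 in ibm1 jmj27, 26.5 and 27.5 in pds5 and 60.2 and 57.0 in Col. Here ibm1 and pds5 were alike and ibm1 jmj27 was far lower. BBX30, BBX31, CYP71A13 and IAA32 were the other genes with the widest spread.

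**Figure D3:**
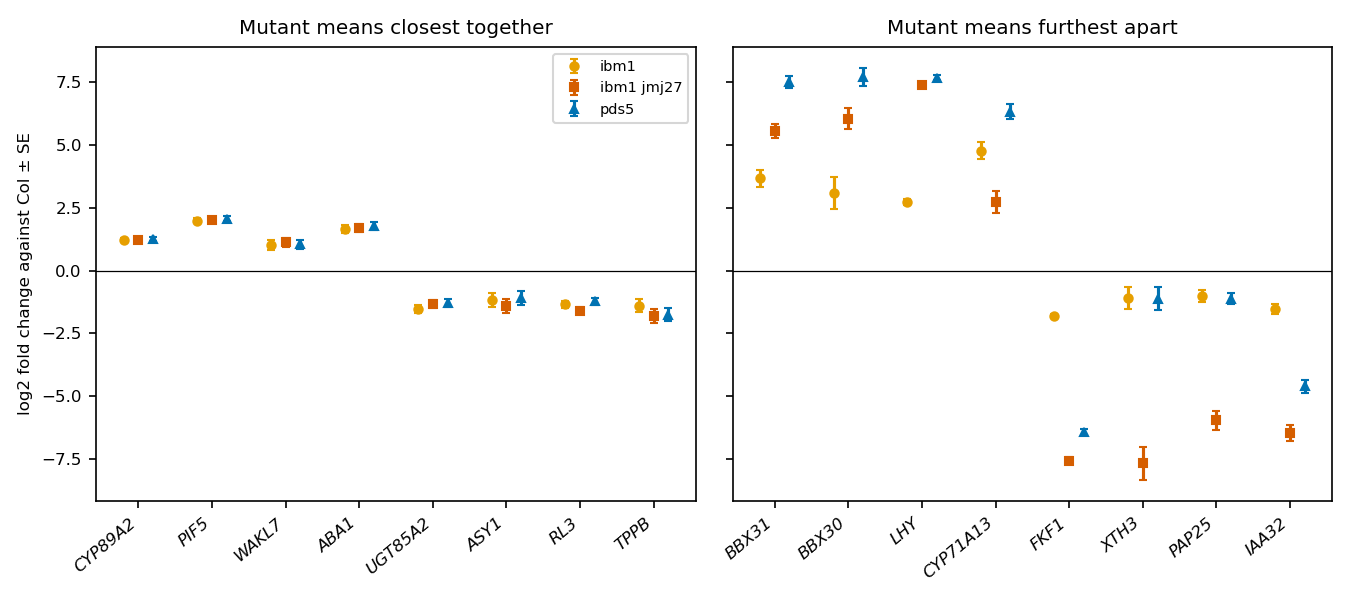
Log2 fold change against Col ± SE of each mutant (ibm1 circles, ibm1 jmj27 squares, pds5 triangles) for the 8 shared genes whose mutant means lay closest together (left) and the 8 whose means lay furthest apart (right). PIF5 stands at 1.98, 2.02 and 2.06, whereas LHY stands at 2.74, 7.39 and 7.68.

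Genes of the circadian clock changed in both directions. All 18 core clock genes passed, 7 higher and 11 lower, and 16 of them were shared. The morning genes LHY, CCA1, RVE8, LNK1 and LNK2 and the day gene PRR9 rose, and the evening genes TOC1, LUX, ELF3, ELF4, GI and BOA fell. RVE8, a Myb activator, had a mean log2 fold change of 4.69, and LUX, the DNA-binding subunit of the evening complex, of -2.29. PRR5 stood at 55.01 and 58.3 CPM in ibm1, 1.79 and 1.87 in ibm1 jmj27, 4.47 and 4.86 in pds5 and 95.4 and 97.5 in Col. PRR7 was not shared, at log2 fold changes of 0.53 for ibm1, -0.64 for ibm1 jmj27 and -1.06 for pds5. Under the pooled fit, 5 core clock genes passed as higher and 4 as lower. With no harvest time in the labels, genotype and time of collection cannot be told apart in any of these comparisons.

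Of 19 clock output genes, whose rhythm the clock is known to drive, 10 rose and 8 fell, and 16 were shared. LNK4 stood at 23.1 and 24.4 CPM in ibm1, 47.9 and 46.5 in ibm1 jmj27, 84.4 and 81.9 in pds5 and 3.52 and 3.45 in Col. LNK3 stood at 24.7 and 24.4 CPM in ibm1, 100 and 98.7 in ibm1 jmj27, 166 and 149 in pds5 and 3.63 and 5.24 in Col. Both are relatives of the LNK coactivators, and both had the order ibm1, ibm1 jmj27, pds5. Among floral timing genes COL1, COL2, CDF1, CDF2 and CDF3 rose, whereas CO fell by 0.47 on the log2 scale and was not shared, and AT1G69570 fell by 0.91 and was shared. RVE2, at -1.09, -0.98 and 1.86 in ibm1, ibm1 jmj27 and pds5, did not pass (adjusted p = 0.548). In the pooled fit, 8 output genes passed as higher and 5 as lower.

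The nuclear photosynthesis genes of the list rose nearly as a whole in the mean of the mutants. Plastid-encoded genes were not on the list, and of 73 tested 2 were shared higher. Of 21 genes for light harvesting and photosystems 20 rose and 0 fell, and 17 were shared, with a median log2 fold change of 0.89 against 0.01 over all genes tested. LHCB2.1, a light-harvesting chlorophyll protein, stood at 842 and 802 CPM in ibm1, 1067 and 1206 in ibm1 jmj27, 801 and 851 in pds5 and 167 and 157 in Col. GLK1, a transcription factor of chloroplast development, stood at 97.3 and 101 CPM in ibm1, 131 and 135 in ibm1 jmj27, 92.9 and 91.6 in pds5 and 37.8 and 35.6 in Col. All mutant libraries of both genes lay above Col, with ibm1 jmj27 highest. PSAD-1, PSBP-1 and LHCA3 rose but were not shared, their pds5 values being near or below Col, and PSAF at 0.17 did not pass. Summed over the list, the mutants held 23898 to 35692 CPM and Col 17722 and 17186. Reads of the LHCB1, LHCB2 and RBCS copies are uncertain, since the sources used here do not state how reads with several matches were counted. With the mutants pooled, 10 genes passed as higher.

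Of 14 chlorophyll synthesis genes 10 rose and 1 fell, and 2 fell without both ibm1 libraries. GUN4, which assists magnesium chelatase, stood at 101 and 96.9 CPM in ibm1, 140 and 153 in ibm1 jmj27, 141 and 154 in pds5 and 44.1 and 44.6 in Col. CAO, which makes chlorophyll b, stood at 98.0 and 95.9 CPM in ibm1, 98.3 and 126 in ibm1 jmj27, 98.1 and 101 in pds5 and 38.9 and 41.3 in Col. The gene that fell was PORB, a light-dependent protochlorophyllide reductase, at 451 and 436 CPM in ibm1, 47.9 and 65.7 in ibm1 jmj27, 72.4 and 79.3 in pds5 and 504 and 474 in Col. In ibm1 PORB was thus close to Col. Under the pooled fit, 5 genes of the list passed as higher.

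Of 14 flavonoid pathway genes tested 12 rose and 0 fell, and the list medians were 0.24 for ibm1, 0.89 for ibm1 jmj27 and 1.18 for pds5. F3H, flavanone 3-hydroxylase, stood at 264 and 265 CPM in ibm1, 573 and 636 in ibm1 jmj27, 580 and 562 in pds5 and 197 and 204 in Col. DFR, of the anthocyanin branch, had 15 and 9 counts in ibm1, 130 and 89 in ibm1 jmj27, 42 and 66 in pds5 and 0 and 2 in Col. UGT78D1, a flavonol glycosyltransferase, was not shared, since ibm1 stood at 148 and 139 CPM against 148 and 138 in Col. In the pooled fit, 0 genes of the list passed in edgeR and 8 were higher at an unadjusted p under 0.05.

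Starch genes fell more often than they rose. Of 24 starch genes 6 rose and 14 fell, but 4 of those lower were shared. PHS2, a cytosolic glucan phosphorylase, stood at 482 and 471 CPM in ibm1, 96.3 and 112 in ibm1 jmj27, 92.5 and 88.6 in pds5 and 528 and 516 in Col. ISA3, a debranching enzyme of starch breakdown, stood at 257 and 258 CPM in ibm1, 51.4 and 46.4 in ibm1 jmj27, 43.8 and 45.1 in pds5 and 245 and 247 in Col. These genes were lowest in ibm1 jmj27 and pds5. BAM3, a starch-degrading amylase, was lower in ibm1 too, at -0.56, and the list median was 0.31 for ibm1, -0.84 for ibm1 jmj27 and -0.93 for pds5. GBSS1, the granule-bound starch synthase, rose in every mutant, at 199 and 198 CPM in ibm1, 267 and 328 in ibm1 jmj27, 297 and 317 in pds5 and 47.6 and 45.8 in Col. With the mutants pooled, 2 starch genes passed as higher and 0 as lower, with 2 lower at an unadjusted p under 0.05 in edgeR.

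Of 14 genes tested that sugar starvation or darkness induces, 12 fell and 1 rose in the mean of the mutants, and 8 of the lower ones were shared. Besides DIN10, SEN1, a senescence-associated gene induced in the dark, stood at 0.793 and 0.492 CPM in ibm1, 0.893 and 2.66 in ibm1 jmj27, 0.0758 and 0.163 in pds5 and 3.98 and 4.01 in Col. DIN6, the glutamine-dependent asparagine synthetase, had a mean log2 fold change of -2.09. TPS11, a trehalose phosphate synthase family gene, stood at 24.7 and 24.9 CPM in ibm1, 16.9 and 17.5 in ibm1 jmj27, 30.5 and 32.9 in pds5 and 40.8 and 36.4 in Col. Summed over the list, the mutants held 249 to 356 CPM and Col 535 and 536. DIN9, a mannose phosphate isomerase gene, was the member that rose, at 0.80, and its call ended without Col replicate 1, as it did without both pds5 libraries. Under the pooled fit, 2 genes of this list passed as lower.

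Of 21 iron homeostasis genes tested 12 rose and 5 fell in the mean of the mutants. The ferritin gene FER3 stood at 61.8 and 57.8 CPM in ibm1, 73.8 and 66.1 in ibm1 jmj27, 53.1 and 53.5 in pds5 and 120 and 113 in Col. PYE, a regulator induced by iron shortage, stood at 16.0 and 15.4 CPM in ibm1, 11.4 and 10.5 in ibm1 jmj27, 25.8 and 23.3 in pds5 and 5.46 and 5.93 in Col. OPT3, a phloem iron transporter, stood at 200 and 204 CPM in ibm1, 77.5 and 92.01 in ibm1 jmj27, 352 and 319 in pds5 and 61.8 and 70.0 in Col. In each case ibm1 jmj27 was the mutant nearest to Col. The regulators BHLH38 and BHLH39 passed but were not shared, since an ibm1 jmj27 library held 0 counts of BHLH38 and 1 of BHLH39, no more than Col replicate 1. FER1, FER2 and FER4, the other ferritin genes of the list, fell too, as did the uptake transporter gene IRT1. Without Col replicate 2 or without both pds5 libraries, 3 genes of the list fell, and in the pooled fit, 3 passed as higher and 1 as lower.

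Of 18 abscisic acid genes tested 15 rose and 2 fell, 13 of them shared higher, with list medians of 1.72 for ibm1, 0.42 for ibm1 jmj27 and 1.46 for pds5. AFP1, which interacts with the regulator ABI5, stood at 35.3 and 35.3 CPM in ibm1, 13.04 and 12.6 in ibm1 jmj27, 72.5 and 64.5 in pds5 and 2.196 and 2.43 in Col. LEA7, a desiccation-protection gene, stood at 88.4 and 86.1 CPM in ibm1, 7.73 and 9.52 in ibm1 jmj27, 91.4 and 81.3 in pds5 and 7.10 and 6.05 in Col. In ibm1 jmj27 LEA7 was thus barely above Col. The phosphatase genes HAB1, ABI1, ABI2, HAI1 and HAI2 and the synthesis gene NCED3 rose as well, whereas CYP707A1, which breaks the hormone down, and ABI5 fell. In the pooled fit, 4 genes passed as higher and 1 as lower. Without both ibm1 jmj27 libraries 1 gene fell.

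Of 13 cold response genes 2 rose and 8 fell in the mean of the mutants, and 4 of the lower were shared. The list medians were 0.70 for ibm1, -1.80 for ibm1 jmj27 and -0.78 for pds5, so ibm1 alone had a positive median. COR15B, a cold-induced chloroplast protein, stood at 178 and 169 CPM in ibm1, 19.5 and 17.7 in ibm1 jmj27, 35.6 and 39.1 in pds5 and 237 and 240 in Col. COR6.6 stood at 1768 and 1636 CPM in ibm1, 415 and 430 in ibm1 jmj27, 926 and 986 in pds5 and 2483 and 2485 in Col. KIN1, the neighbouring and closely related gene, had its pds5 values of 283 and 263 CPM near the Col values of 301 and 333. RD29A and CBF3, at 1.72 each in ibm1 but -3.90 and -3.48 in ibm1 jmj27, passed as lower and were not shared. The counts were 5 higher and 5 lower without both ibm1 jmj27 libraries, and 1 gene was higher without Col replicate 2. No gene (0) passed in the pooled edgeR fit, where 1 higher and 1 lower had an unadjusted p under 0.05.

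Glucosinolate synthesis, the pathway of sulfur-rich defense compounds, was higher for most genes of the list tested. IGMT5, the indole glucosinolate methyltransferase gene described above, was not on the list and was lower, at a mean log2 fold change of -2.58. Of 15 genes tested 13 rose and 0 fell, 11 were shared, and the median log2 fold change was 1.20, the value of CYP79B3. CYP83A1, of the aliphatic branch, stood at 44.4 and 40.2 CPM in ibm1, 32.9 and 34.95 in ibm1 jmj27, 38.8 and 46.7 in pds5 and 8.12 and 6.48 in Col. CYP79B2, of the indole branch, stood at 15.3 and 14.1 CPM in ibm1, 25.4 and 24.5 in ibm1 jmj27, 19.7 and 27.6 in pds5 and 5.77 and 5.12 in Col. For both genes the mutant libraries lay well clear of Col. BCAT4, which starts methionine chain elongation, had 15 and 8 counts in ibm1, 1 and 3 in ibm1 jmj27, 38 and 43 in pds5 and 0 in both Col libraries. MAM1, MYB51 and CYP79F1 rose without being shared. With the mutants pooled, 7 genes passed as higher.

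Of 16 genes of salicylic acid and camalexin defense 9 rose and 1 fell, and 5 were shared higher. CYP71A13, of camalexin synthesis, stood at 6.21 and 4.18 CPM in ibm1, 1.24 and 1.26 in ibm1 jmj27, 15.4 and 15.1 in pds5 and 0.204 and 0.171 in Col. PR2, a glucanase gene, stood at 13.04 and 11.9 CPM in ibm1, 49.4 and 48.1 in ibm1 jmj27, 80.2 and 87.8 in pds5 and 11.1 and 12.3 in Col. PR5 stood at 6.69 and 7.42 CPM in ibm1, 27.9 and 24.8 in ibm1 jmj27, 26.5 and 27.3 in pds5 and 6.64 and 4.22 in Col. The ibm1 libraries of PR2 and PR5 were thus at or just above Col. Without Col replicate 2 no gene (0) fell, without both ibm1 libraries or both pds5 libraries 2 did, and in the pooled fit, 1 passed as higher.

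Among 18 jasmonate genes 2 rose, 7 fell and 9 did not pass. JAR1, which makes the active hormone conjugate, stood at 132 and 137 CPM in ibm1, 49.1 and 76.5 in ibm1 jmj27, 94.3 and 104.7 in pds5 and 182 and 212 in Col. JAZ1, a repressor of the response, stood at 25.6 and 24.4 CPM in ibm1, 19.7 and 21.7 in ibm1 jmj27, 21.4 and 31.7 in pds5 and 37.5 and 39.3 in Col. OPR3, needed for the hormone and for stamen maturation, stood at 79.0 and 81.4 CPM in ibm1, 61.3 and 59.0 in ibm1 jmj27, 51.8 and 69.1 in pds5 and 85.7 and 92.8 in Col. All mutant libraries of these 3 genes were below Col. The count of lower genes was unstable, being 3 without Col replicate 1, 4 without Col replicate 2 or without either ibm1 jmj27 replicate, 3 without both and 13 without pds5 replicate 2. That of higher genes was 1 without either ibm1 replicate, either ibm1 jmj27 replicate or either Col replicate, and likewise without both ibm1 or both ibm1 jmj27 libraries. Under the pooled fit, 1 jasmonate gene passed as lower.

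Meiotic genes were lower more often than higher. Of 38 genes 1 rose, 16 fell and 21 did not pass, and 11 were shared lower. SHOC1, a crossover protein, stood at 3.74 and 4.08 CPM in ibm1, 0.815 and 0.793 in ibm1 jmj27, 3.37 and 2.78 in pds5 and 4.34 and 4.90 in Col. ZYP1B, of the synaptonemal complex, stood at 5.73 and 6.49 CPM in ibm1, 4.04 and 2.19 in ibm1 jmj27, 8.00 and 8.01 in pds5 and 11.1 and 8.99 in Col, and its reads cannot be separated with confidence from those of its near-identical neighbour ZYP1A. The gene that rose was HEI10, a crossover factor, at 10.4 and 9.34 CPM in ibm1, 11.6 and 9.57 in ibm1 jmj27, 6.44 and 6.70 in pds5 and 5.62 and 5.29 in Col. ASY1, SYN1, MSH5 and OSD1 were among the shared lower genes, and SPO11-1 at -0.29 did not pass. The count of lower genes was 8 without Col replicate 2. In the pooled fit, 1 meiotic gene passed as lower. Without both ibm1 jmj27 libraries 2 genes were higher.

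Genes of the tapetum and pollen wall fell in the mean of the mutants. Of 20 genes 14 fell and 0 rose, 13 were shared lower, and the median log2 fold changes were -0.75 for ibm1, -0.70 for ibm1 jmj27 and -1.16 for pds5. GRP19 stood at 791 and 769 CPM in ibm1, 192 and 251 in ibm1 jmj27, 774 and 739 in pds5 and 1340 and 1409 in Col. QRT3, a pectin-degrading enzyme that frees the microspores, stood at 101 and 105.4 CPM in ibm1, 56.1 and 67.1 in ibm1 jmj27, 68.0 and 77.3 in pds5 and 160 and 168 in Col. MS1, a late tapetal regulator, stood at 14.5 and 18.9 CPM in ibm1, 11.8 and 15.2 in ibm1 jmj27, 9.36 and 8.66 in pds5 and 28.2 and 27.8 in Col. None of the mutant libraries of these genes reached Col, and for MS1 pds5 was lowest. CALS5, a callose synthase of the microspore wall, stood at 11.8 and 12.0 CPM in ibm1, 10.2 and 11.6 in ibm1 jmj27, 14.3 and 20.2 in pds5 and 23.2 and 26.3 in Col. TDF1, an early tapetal regulator, was at -0.28 and did not pass. With the mutants pooled, 4 genes passed as lower.

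Of 17 pollen genes tested 15 fell and 0 rose in the mean of the mutants, but 4 were shared, and the list medians were -1.63 for ibm1, -5.65 for ibm1 jmj27 and 0.07 for pds5. VGD1, a pollen tube pectin methylesterase, stood at 28.5 and 26.4 CPM in ibm1, 0.194 and 0.0933 in ibm1 jmj27, 82.0 and 103 in pds5 and 85.1 and 82.6 in Col. STP9, a pollen sugar transporter, stood at 17.8 and 17.2 CPM in ibm1, 1.36 and 0.980 in ibm1 jmj27, 48.9 and 55.5 in pds5 and 44.6 and 46.6 in Col. In pds5 both were near or above Col. PGA4, a pollen polygalacturonase gene, and HA6, a proton pump gene, had 1 count each in ibm1 jmj27, against 4276 and 3028 in Col, ratios of Col to ibm1 jmj27 of 4689 (95% interval 841 to 185229) and 3320 (95% interval 595 to 131180). Summed over the list, the level was 145 and 142 CPM in ibm1, 34.1 and 35.5 in ibm1 jmj27, 350 and 435 in pds5 and 406 and 385 in Col, so the pds5 libraries lay on both sides of Col. Without both ibm1 jmj27 libraries 9 genes passed as lower. The pooled edgeR fit passed 0, with 2 lower at an unadjusted p under 0.05. The part of the amount of pollen, tapetum and green tissue per library in the other differences between mutants and Col was not tested.

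**Figure D4:**
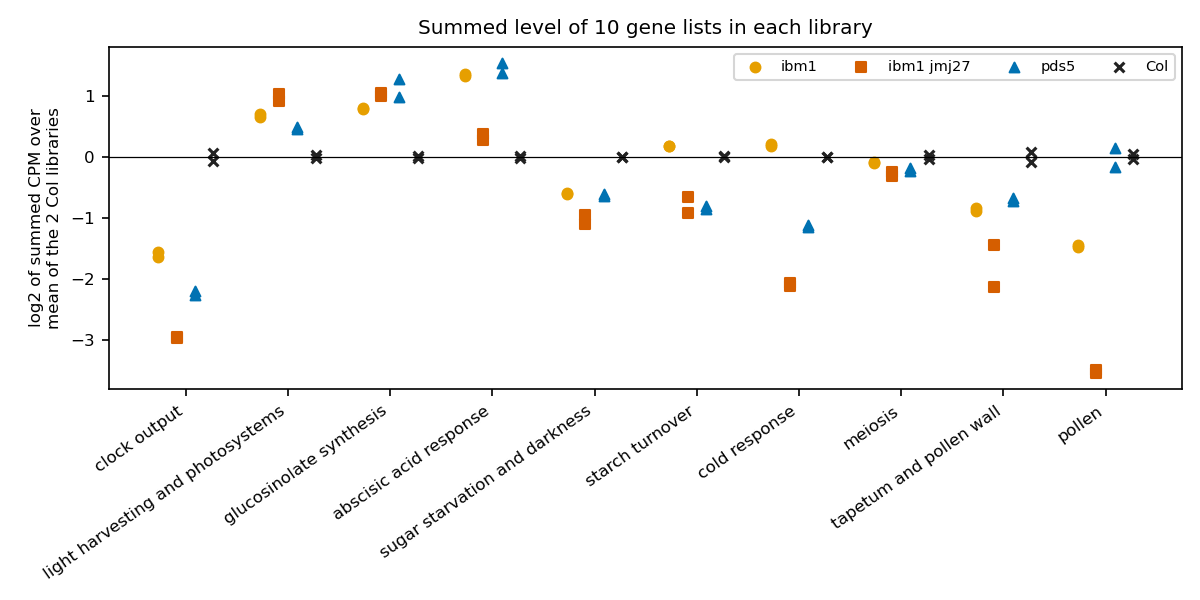
Log2 of the summed CPM of 10 gene lists in each library over the mean of the 2 Col libraries. Photosynthesis, glucosinolate and abscisic acid lists lie above 0 and the tapetum list below 0 in all 6 mutant libraries, whereas the pollen list falls in ibm1 and ibm1 jmj27 and scatters around 0 in pds5.

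Genes that place or remove H3K9 and DNA methylation fell slightly. Of 22 genes 16 fell, IBM1 and JMJ27 included, and 3 rose, with 11 shared lower and a median log2 fold change of -0.32. CLSY1, a chromatin remodeller of RNA-directed DNA methylation, stood at 26.5 and 26.6 CPM in ibm1, 17.59 and 18.5 in ibm1 jmj27, 18.3 and 17.5 in pds5 and 40.8 and 40.5 in Col. NRPE1, the largest subunit of RNA polymerase V, stood at 51.0 and 52.2 CPM in ibm1, 41.7 and 46.0 in ibm1 jmj27, 29.3 and 29.1 in pds5 and 69.2 and 70.4 in Col. Every mutant library lay below Col for both. The methyltransferase genes MET1 and CMT3, the H3K9 methyltransferase genes SUVH4 and SUVH5 and the DNA demethylase gene ROS1 were also shared lower. The 3 genes that rose were DRM2, IDN2 and SUVH6, at 0.20, 0.20 and 0.27, and 0 rose without Col replicate 1 or without Col replicate 2. Under the pooled fit, 3 of these genes passed as lower.

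Of 16 DNA damage genes 5 rose, 3 fell and 8 did not pass, near the shares over all genes tested (23.1% higher and 22.9% lower). The list median was 0.03. NAC044, SMR5 and BARD1 are described because their p-values were among the smallest of the list, so they do not stand for it. NAC044, a transcription factor of the damage response, stood at 4.80 and 5.21 CPM in ibm1, 8.62 and 9.24 in ibm1 jmj27, 7.43 and 9.40 in pds5 and 1.02 and 1.41 in Col. SMR5, a cell cycle inhibitor, stood at 1.54 and 1.03 CPM in ibm1, 2.68 and 2.05 in ibm1 jmj27, 3.79 and 3.15 in pds5 and 0.153 and 0.256 in Col. BARD1, a repair protein, stood at 25.0 and 23.3 CPM in ibm1, 13.6 and 14.8 in ibm1 jmj27, 23.6 and 23.5 in pds5 and 27.8 and 29.3 in Col. NAC044 and SMR5 were clear of Col in all 6 mutant libraries, whereas SOG1 at 0.01 did not pass. The count of higher genes was 2 without ibm1 replicate 1 or Col replicate 1, and 3 without pds5 replicate 2, without Col replicate 2 or without both ibm1 jmj27 libraries. That of lower genes was 5 without ibm1 jmj27 replicate 2 and 1 without Col replicate 2, where the call of PARP1 ended. In the pooled fit, 2 of these genes passed as higher.

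The remaining lists had genes called in both directions, beside 23.1% higher and 22.9% lower over all genes tested. These lists are short, so their counts do not show that a list moved. Of 15 floral organ identity genes 5 rose and 5 fell, with a list median of -0.02. SEP1, a partner of the other floral homeotic factors, stood at 79.2 and 78.8 CPM in ibm1, 109 and 117 in ibm1 jmj27, 121 and 118 in pds5 and 75.02 and 70.5 in Col. CRC, a carpel gene, stood at 29.2 and 30.2 CPM in ibm1, 28.5 and 22.9 in ibm1 jmj27, 18.4 and 17.9 in pds5 and 36.6 and 39.0 in Col. Without Col replicate 2, 3 floral genes were lower. Of 10 phosphate starvation genes 4 rose (2 without Col replicate 2) and 3 fell. PAP17, an acid phosphatase, stood at 16.1 and 19.4 CPM in ibm1, 31.0 and 36.4 in ibm1 jmj27, 39.2 and 39.5 in pds5 and 12.0 and 11.3 in Col. MGD3, of galactolipid synthesis under low phosphate, stood at 1.59 and 1.62 CPM in ibm1, 0.427 and 0.513 in ibm1 jmj27, 3.11 and 3.35 in pds5 and 7.61 and 5.33 in Col. Of 8 heat and touch genes, which can mark handling, 4 rose and 1 fell, and 2 fell without both ibm1 libraries. HSP18.2, a small heat shock protein, stood at 13.3 and 14.8 CPM in ibm1, 13.6 and 11.3 in ibm1 jmj27, 14.6 and 14.5 in pds5 and 5.11 and 6.52 in Col, and HSP90.1 was the gene that fell. With the mutants pooled, 1 heat and touch gene passed as higher. The pooled fit passed 0 genes of the floral and phosphate lists in either direction, with 3 floral and 3 phosphate genes higher and 1 and 3 lower at an unadjusted p under 0.05 in edgeR.

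Where a list above had 0 genes lower (light harvesting, flavonoid and glucosinolate) or 0 higher (tapetum and pollen), 0 had that direction at an unadjusted p under 0.05 in edgeR, and 0 passed there in the DESeq2 Wald test.

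**Figure D5:**
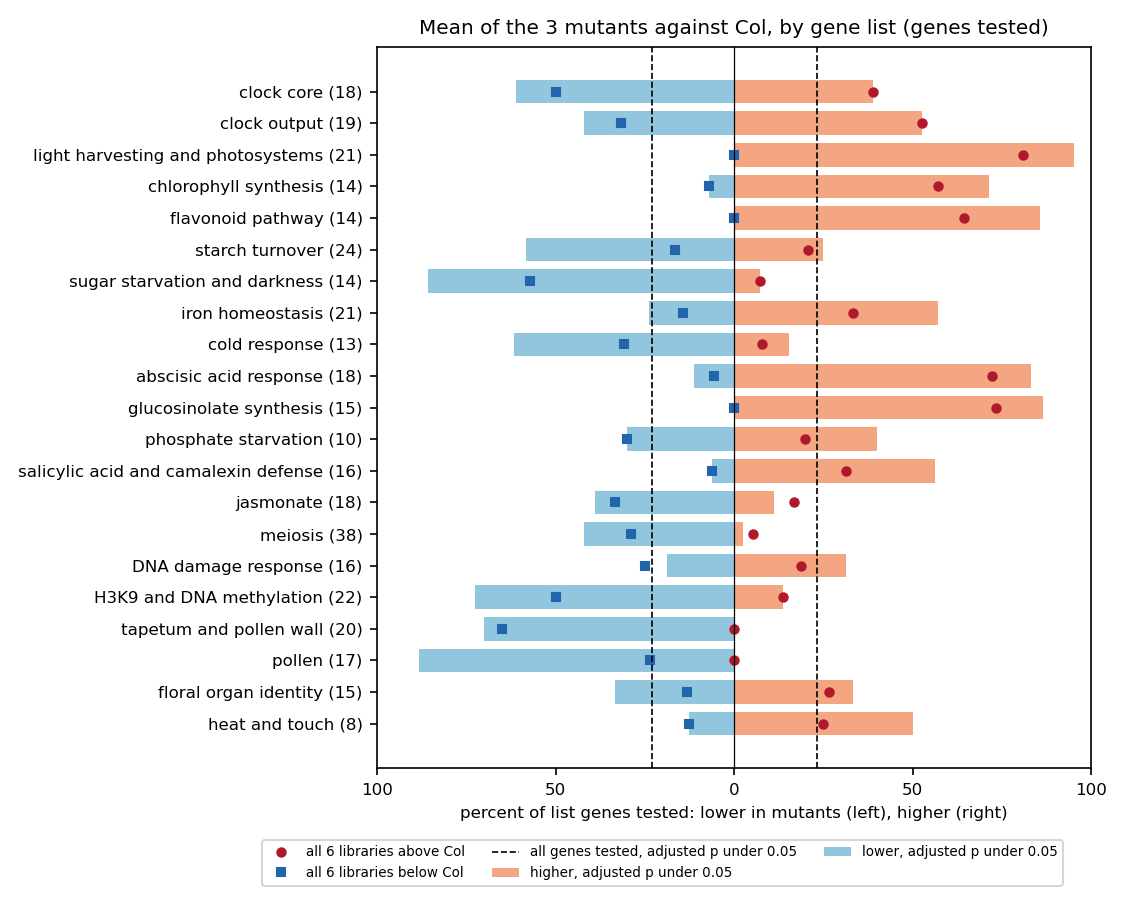
Share of the tested genes of each list that was lower (bars to the left) or higher (bars to the right) in the mean of the 3 mutants against Col, with the share on 1 side of both Col libraries as points and the shares over all genes tested, 23.1% higher and 22.9% lower, as dashed lines. Light harvesting has 20 of 21 genes higher, and the sugar starvation list has 12 of 14 lower.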

How the data were processed

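The authors deposited raw counts per gene in 3 tables, each pairing the Col libraries with 1 mutant. The Col columns were identical in all 3 tables and were used once. All columns were mapped, leaving 0 over. Per the submitters' processing notes HISAT2 and Subread were used on the TAIR10 build, and DESeq2 is named too. How strand and reads with several matches were handled is not given in the sources used here. Values of overlapping, antisense and near-identical genes are therefore uncertain.

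In R 4.3.3 the counts of 27416 genes were filtered with filterByExpr and scaled by TMM in edgeR 4.0.16, leaving 21548. The quasi-likelihood fit with robust estimation had 1 mean per genotype and 4 residual degrees of freedom. The SE of a log2 fold change is its absolute value over the square root of F. Ratios with few counts carry exact conditional 95% intervals of counting error. DESeq2 1.42.0 was an alternative, as were its size factors, no filter, no robust estimation, a replicate block, a pooled fit of 6 against 2 libraries, a minimum change and each library left out. Leaving out both libraries of a mutant was added after seeing the data.

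Symbols came from a RefSeq table of TAIR10.1, which held 26719 of the 27416 genes. Its coordinates are not printed. Symbols it lacks (JMJ27 and the PDS5 genes) were matched by locus alone. The lists, members and tests were chosen with earlier results of these data known.

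Named genes were IBM1, JMJ27 and PDS5A to PDS5E. Others were shared genes that passed, with a symbol or on a gene list, averaging at least 1 in log2 CPM. Of these, the 12 higher and 12 lower with the largest smallest change were named. So were the 4 and 4 with mutant means closest together or furthest apart at a smallest change of at least 1. To these were added up to 4 members per list by smallest p, genes next to the edge of the rule averaging at least 5 in log2 CPM, and 3 genes with opposite movement. Further list members are named to show direction and were chosen after their values were seen.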

Additional observations from a re-analysis of the deposited data

Results flagged for a closer look

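The 3 genes with the widest opposite movement of the mutants against Col differed between mutants by the edgeR quasi-likelihood F test. They were chosen for that movement, which the test measures again in the same mutant libraries. The adjusted p-values of the difference among the mutants are therefore descriptions and lend it no support. HB1, a hemoglobin gene, stood at 0.264 and 0.0983 CPM in ibm1, 1.17 and 1.26 in ibm1 jmj27, 7.47 and 8.91 in pds5 and 0.409 and 0.895 in Col (adjusted p of the difference among the mutants = 9.79e-08). MAF4, a MADS-box repressor of flowering, stood at 3.88 and 4.13 CPM in ibm1, 8.77 and 10.4 in ibm1 jmj27, 0.569 and 0.899 in pds5 and 2.30 and 3.15 in Col (adjusted p = 1.54e-07). PR1, a marker of salicylic acid signalling, stood at 0 and 0.0492 CPM in ibm1, 0.194 and 0.0933 in ibm1 jmj27, 7.66 and 7.44 in pds5 and 0.153 and 0.0426 in Col (adjusted p = 1.11e-08). For PR1 the ibm1 and Col groups held 1 and 4 counts, so their order is not resolved at this depth. The mean of the mutants did not pass for any of the 3 genes with all libraries in the fit. For HB1 it passed without ibm1 replicate 2, ibm1 jmj27 replicate 1 or Col replicate 2 (adjusted p = 0.0499, 0.0480 and 0.0301) and without both ibm1 libraries (adjusted p = 0.000168), and for PR1 without both ibm1 libraries (adjusted p = 0.000822).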

How the results depend on the processing

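The counts of shared genes were 3764 to 4846 higher and 3493 to 4383 lower with 1 library left out, 707 and 360 with a margin of 1.5 times, and the lower count was 5421 without both ibm1 libraries. Leaving libraries out eases the rule and so favours larger counts by construction, whereas the margin tightens it. The counts of the mean contrast were 3093 to 5850 higher and 3082 to 5931 lower with 1 library left out, 857 and 452 with 6 libraries fitted against 2, and 1144 and 1174 with an absolute log2 fold change of at least 1. With DESeq2 size factors 4636 genes were higher and 5259 lower (46.9% higher), and with the DESeq2 Wald test 3923 and 4437. The fit with a replicate block gave 5091 and 5081 in the mean contrast and 13976 genes differing among the mutants. Samples of the same number share only that number, and their deviations correlated at 0.006 to 0.312 over 14799 genes. The count differing among the mutants was 10705 to 15437 with 1 library left out. Of 129 named genes, 70 lost their call in the fit of 6 against 2 libraries, where differences between mutants enter the spread by construction, and 2 did in the Wald test. MAF4, at 0.14 in all libraries, ran from -0.0574 (adjusted p = 0.88, without Col replicate 1) to 0.398 with 1 library left out, and stood at -0.0655 without both ibm1 libraries, at -0.682 without both ibm1 jmj27 libraries (adjusted p = 0.0184) and at 1.15 without both pds5 libraries (adjusted p = 0.000420), the last pair past the threshold. JMJ27 was at 0.0544 without both ibm1 jmj27 libraries, PDS5D at -0.0784 without both ibm1 and -0.0101 without both pds5 libraries, and HB1 at -0.500 without both pds5 libraries. The causes of these shifts were not tested. Counting depth limits genes with few counts, such as BBX30, BCAT4 and DFR in Col.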
